A study of Drosophila melanogaster with 2 samples.

Results

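The 9 genes described here, kirre, rst, sns, hbs, mbc, Mef2, twi, lmd and nau, set the fate of embryonic myoblasts in Drosophila melanogaster or carry out their fusion. They were taken by name, out of 13945 protein-coding genes on the 6 main chromosome arms, and all 9 were found in the annotation. For each gene, the regions bound by the abrupt protein (ab) were collected over its territory, which is the gene body with 1 kb on either side. The data are ChIP-seq (chromatin immunoprecipitation followed by sequencing) from 1 group of 2 biological replicates. These were whole embryos of pooled sex, 0 to 24 hours old, of the strain ab-GFP, a stable transgenic line in which GFP is fused to the C-terminus of ab and is the target of the antibody. All nuclei of the embryo were sampled together, so binding confined to muscle precursors could not be told from binding in other tissues, and the labels give no embryos without the tag.

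Larval body wall muscles form when founder myoblasts, which carry the identity of each muscle, fuse with fusion-competent myoblasts. Founder cells use the immunoglobulin-family receptors kirre and rst to attract fusion-competent cells, which carry the related receptors sns and hbs, and contact is passed through mbc, an activator of the GTPase Rac, to the actin cytoskeleton. Upstream of fusion, the bHLH factor twi specifies mesoderm, the MADS-box factor Mef2 drives muscle differentiation, the zinc-finger factor lmd sets the fusion-competent fate, and nau, the fly relative of MyoD, acts in a subset of founders. The ab protein is a BTB and zinc-finger transcription factor known for its roles in dendrite shape and in the attachment and innervation of embryonic muscles.

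The deposited lists on the dm6 build hold 30000 regions for each replicate, 21376 for the pool of both and 1664 reproducible peaks, which were exactly the strongest pooled regions. Each region has a signal, the authors' score against a control on a scale that is not stated. Reproducible peaks had signals from 51.8 to 1007 with a median of 75.1, and pooled regions began at 14.9. The lists give no read counts, so the depth behind each value is unknown, and a gene without a region is only below what these lists record. A replicate signal given below belongs to the region of that replicate whose summit, the position of highest signal, lay nearest to the pooled summit within 200 bp.

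Reproducible peaks were found at kirre, mbc and nau, and at none of the other 6 genes. The 3 genes are 33.3% of the members, against 13.2% of all protein-coding genes (no test was made, since the genes were chosen with results known). Long genes collect more peaks, so each member was also set beside the protein-coding genes whose territory was within 2-fold of its own length. Summed over the 9 members, the shares of such genes with a peak came to 2.19 genes, beside the 3 observed. The share used for kirre, 11.1%, is kirre itself as 1 of only 9 such genes, so this sum gives no independent background for kirre. The territories held 11 distinct reproducible peaks, 8 of them in kirre. That gene makes up 59.7% of the summed territory length of 663 kb, in which rst, wholly inside kirre, is counted again. Counting only peaks with the gene's own transcription start site (TSS) nearest left kirre with 3 peaks and mbc with 1, or 22.2% of the members against 8.07% of all protein-coding genes. For the other 7 peaks the nearest TSS was that of Syx4, CG32795, N, Nup98-96 or CG10300. Below the reproducible level, all 9 territories held at least 1 pooled region (63.4% of protein-coding genes did), and 8 of the 9 held one with their own TSS nearest (47.7%). Among genes of like length, from 72.2% (for lmd) to 96.7% (for sns and twi) held a pooled region. Summed over the 9 members these shares came to 8 genes, so the 9 observed were near what length alone gives. For reproducible peaks or pooled regions with the gene's own TSS nearest, no share among genes of like length was computed.

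**Figure D1:**
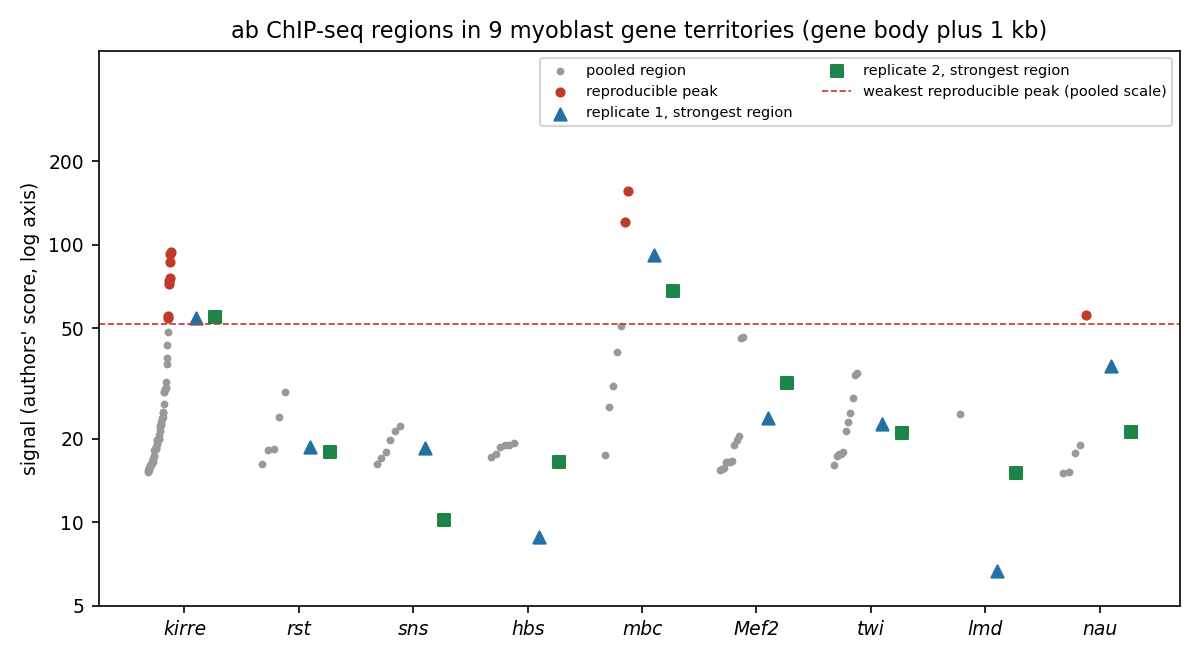
Signal of every ab region in the territory of each of the 9 genes, on a log axis. Grey points are pooled regions, red points reproducible peaks, blue triangles and green squares the strongest region of replicate 1 and of replicate 2, and the dashed line the weakest reproducible peak of the pooled list (51.8). The genes mbc, kirre and nau pass the line, Mef2 comes nearest to it from below with 46.6, and hbs is lowest with 19.3.

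The founder cell receptor kirre (FBgn0028369, X, 2740384 to 3134532, plus strand) spans 394 kb and has 6 annotated TSSs. Its 8 reproducible peaks amount to 2.02 per 100 kb of territory, against 1.31 per 100 kb on X and 1.24 over the 6 arms. Its 63 pooled regions come to 15.9 per 100 kb, against 13.3 on X and 16.0 over the arms. So the density of reproducible peaks stood above the average of X and of the genome, while that of all pooled regions was close to the genome's. Only 9 protein-coding genes, kirre included, have a territory within 2-fold of its length, and none of the other 8 held a reproducible peak. Among them Ten-a, also on X, came closest with 28 pooled regions (9.54 per 100 kb, strongest signal 44.3), and bru3 had 17 (6.00 per 100 kb). The remaining 6 (Pzl, l(3)80Fg, Snap25, lovit, CG17684 and DIP-lambda) had from 0 to 5 pooled regions each, at most 1.38 per 100 kb against 16.0 over the arms. Of these, 3 lie on 3L beyond 24074180, CG17684 and DIP-lambda on 2R before 2262115, and Pzl on 3R before 3263582, towards the centromere side of their arms. The genes of like length are therefore not a like background for kirre. The body of kirre also holds 21 other protein-coding genes whole, rst among them.

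The peaks of kirre fell into a set of 4 towards its start and a set of 4 in its distal part. The strongest (X, 3096939 to 3097448) was intronic, 2356 bp upstream of an internal kirre TSS at 3099550, with a pooled signal of 94.3, 50.3 in replicate 1 and 45.0 in replicate 2. A further intronic peak (3085812 to 3086321) stood 13483 bp upstream of the same TSS, with 73.9 in the pool, 44.0 in replicate 1 and 37.0 in replicate 2. The remaining peak with a kirre TSS nearest (3022407 to 3022916) lay 33611 bp downstream of the TSS at 2989051 and was weaker, with 55.1 in the pool, 16.8 in replicate 1 and 28.8 in replicate 2. All 3 lay outside promoters, in introns of the 4 kirre transcripts that span each of them.

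At the start of kirre, a pair of peaks 1016 bp apart lay upstream of TSSs of Syx4, a syntaxin gene that overlaps the start of kirre on the minus strand. The peak at 2743020 to 2743529, 317 bp upstream of a Syx4 TSS, had signals of 86.6 in the pool, 44.1 in replicate 1 and 44.2 in replicate 2. The peak at 2744036 to 2744545, 215 bp upstream of another Syx4 TSS, had 72.0 in the pool, 20.03 in replicate 1 and 22.63 in replicate 2, and a stronger region of replicate 2 (54.7) also overlapped it. These summits stand 2470 and 3486 bp downstream of the nearest kirre TSS, so TSSs of both genes lie near this pair.

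A second pair, 796 bp apart, lay 46.4 kb from the first TSS of kirre, within the body of CG32795. Its members (2786476 to 2786985 and 2787272 to 2787781) had pooled signals of 92.9 and 75.7, with 54.5 and 35.6 in replicate 1 and 42.0 and 32.8 in replicate 2. The last peak (3134227 to 3134736) covered the end of kirre and stood 388 bp upstream of the TSS of N, the Notch receptor gene, which begins 338 bp past the end of kirre. It had 54.4 in the pool and 34.7 in replicate 2, while replicate 1 had no summit within 200 bp and an overlapping region of 16.6. It is the one of the 8 without a summit of both replicates within 200 bp, while the overlapping regions of the replicates differed more at the peak from 2744036 (20.03 and 54.74).

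Between 2787527 and 3022662, 235.1 kb of kirre held no reproducible peak. The stretch held 26 pooled regions, the strongest with a signal of 39.1, and includes the whole of rst.

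**Figure D2:**
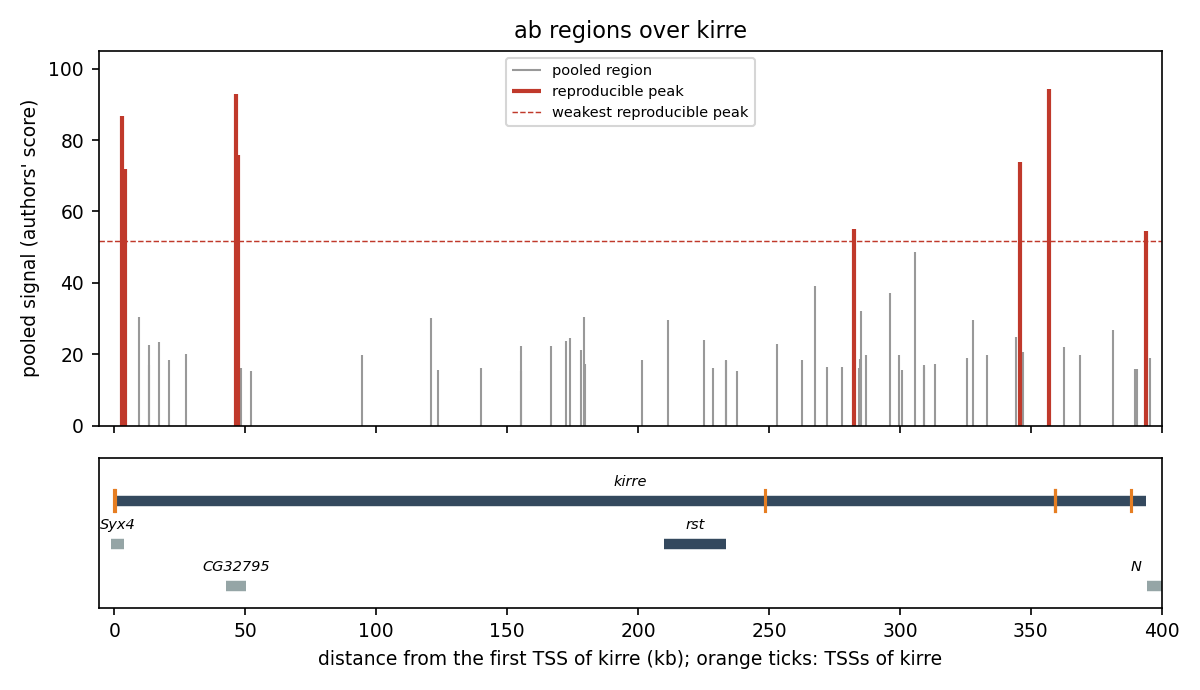
Pooled signal of every ab region over kirre, by distance in kb from its first TSS, with the positions of kirre, rst, Syx4, CG32795 and N below (N continues past the right edge). Red lines are the 8 reproducible peaks, grey lines other pooled regions and orange ticks the TSSs of kirre. The red lines stand from 2.89 to 47.1 kb and from 282.3 to 394.1 kb, with the 235.1 kb gap and rst between them.

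The windows below run 50 bp to either side of a summit (dm6, plus strand) and are shown because they hold the strongest and the weakest summit with a kirre TSS nearest and the stronger of the pair in CG32795. Capitals mark matches to a set of 7 fixed words, here CANNTG (the E-box of bHLH factors such as twi and nau) and the Mef2 consensus.
kirre chrX:3097144-3097244: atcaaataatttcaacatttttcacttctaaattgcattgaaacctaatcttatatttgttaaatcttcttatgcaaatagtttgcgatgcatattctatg
kirre chrX:3022612-3022712: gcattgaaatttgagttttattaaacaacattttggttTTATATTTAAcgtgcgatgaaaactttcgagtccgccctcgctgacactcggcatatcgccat
kirre chrX:2786681-2786781: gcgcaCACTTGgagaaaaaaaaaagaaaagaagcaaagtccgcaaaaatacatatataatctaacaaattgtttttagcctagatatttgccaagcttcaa
The first window is poor in G and C (24.8%) and held none of the words, the second held a Mef2 consensus at the weakest of these summits, and the third held an E-box near its edge.

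The paralogue rst (FBgn0003285, X, 2950399 to 2973834, minus strand) lies wholly inside kirre, so all 5 of its pooled regions were also counted for kirre. None was reproducible. The strongest (2951719 to 2952228, in a 3′ UTR) had 29.5 in the pool, 18.6 in replicate 1 and 9.39 in replicate 2, and its nearest TSS was that of CG3603. At the rst promoter itself, summits 25 and 294 bp upstream of the TSS had pooled signals of 18.2 and 18.3, close to the weakest listed (14.9). Of 1525 genes of like length 54.4% had a pooled region at least as strong as the best of rst. A reproducible peak was present in 26% of the genes of like length, so having none, as rst did, was the more common outcome.

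The Rac activator mbc (FBgn0015513, 3R, 23781765 to 23801634, plus strand) held the strongest peaks of the members. The first (23781288 to 23781797) had 156.1 in the pool, rank 155 of 1664, with 92.1 in replicate 1 and 67.9 in replicate 2. Its summit fell 78 bp downstream of the TSS of Nup98-96, which encodes nucleoporins, and 222 bp upstream of that of mbc. Both genes face away from each other with 144 bp between their TSSs, so this promoter peak cannot be given to mbc alone.

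A second peak belongs to mbc by the nearest TSS. It lay in an intron (23782674 to 23783183), 1164 bp downstream of the mbc TSS and 1386 bp from the first summit. Its signal was 120.4 in the pool, 53.6 in replicate 1 and 57.6 in replicate 2, so the replicates differed by little. A further intronic region (23784011 to 23784520) 2501 bp downstream had 50.8 in the pool, rank 1723, just below the weakest reproducible peak of 51.8, with 32.1 in replicate 1 and 21.7 in replicate 2. In replicate 1 this region was among the 1664 strongest (rank 1090). Of 1710 genes of like length, 24.5% had a reproducible peak, 7.08% had at least 2, and 3.33% had a pooled region as strong as that of mbc. The last 2 shares depend on the peak from 23781288, which has the TSS of Nup98-96 nearest. With the mbc TSS nearest there was 1 reproducible peak, and no share among genes of like length was computed for that count.

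The window of the intronic mbc summit is shown because it is the strongest summit that is nearest to a member's own TSS.
mbc chr3R:23782879-23782979: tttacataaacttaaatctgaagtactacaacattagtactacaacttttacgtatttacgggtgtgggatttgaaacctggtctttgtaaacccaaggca
It held none of the 7 words. It holds the 11 bases agtactacaac as a direct repeat, with copies starting 14 bp apart, and 20 of the 1664 reproducible windows (1.2%) held an exact repeat of that length or longer. This feature was chosen after the sequence was seen.

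The receptors of fusion-competent cells, sns and hbs, had only weak regions. In sns (FBgn0024189, 2R, 8798489 to 8856091) there were 6 pooled regions, all intronic, with signals from 16.2 to 22.2. The strongest (8801892 to 8802401), 3658 bp downstream of the sns TSS, had 10.1 in replicate 1 and 10.2 in replicate 2, and it was the one region of sns that had a summit in both replicates. In hbs (FBgn0287864, 2R, 15011396 to 15042134) there were also 6, from 17.2 to 19.3, and the strongest had 16.4 in replicate 2 and no match in replicate 1. As a whole, 40.1% of pooled regions were matched in both replicates, against 1 of 6 for sns and 2 of 6 for hbs. The 2 of hbs were matched to the same region of replicate 1 (7.639) and the same region of replicate 2 (8.925). Of genes of like length, 76.6% had a stronger or equal region than sns and 81.1% than hbs, so both were in the lower part of their length class. The nearest reproducible peaks outside their territories stood 51.4 kb from sns, at CG30349, and 19.2 kb from hbs, at CG7639.

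The differentiation factor Mef2 (FBgn0011656, 2R, 9913496 to 9958858, minus strand, 3 TSSs) had 12 pooled regions and no reproducible peak within 1 kb. A pair stood apart from the rest. An intronic region (9935737 to 9936246) 6377 bp upstream of its most downstream TSS had 46.6 in the pool, 23.7 in replicate 1 and 14.6 in replicate 2. A region in a 5′ UTR (9942740 to 9943249) had 46.1 in the pool, 18.2 in replicate 1 and 31.7 in replicate 2. The other 10 had signals from 15.4 to 20.4. The 5′ UTR region was among the 1664 strongest of replicate 2 (rank 1643) but not of replicate 1, so it lies at the edge of what these lists separate. A far stronger reproducible peak lay just outside the territory (9959709 to 9960092), with its summit 1110 bp upstream of the most distal Mef2 TSS. It had 315.7 in the pool, rank 34, with 180.3 in replicate 1 and 153.5 in replicate 2, above every peak within the 9 territories. The nearest TSS, 110 bp away, was that of Pal1, which encodes an enzyme of neuropeptide amidation. With territories of 5 kb, or with any overlap of the peak interval, this peak would count for Mef2 and 4 of the 9 genes would have one.

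**Figure D3:**
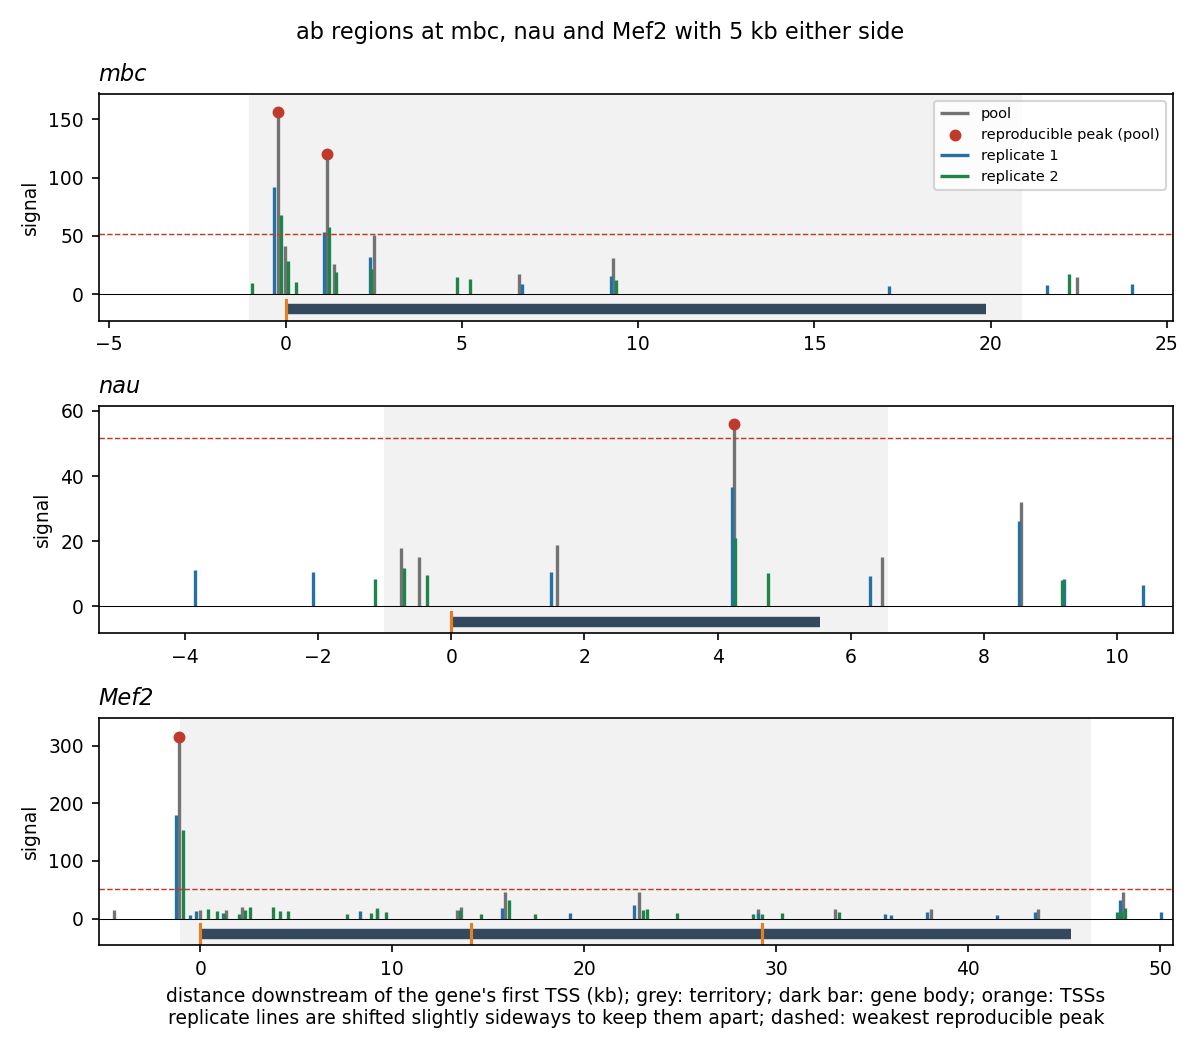
Signal of ab regions by distance in kb from the first TSS of mbc, nau and Mef2, in the pool (grey), replicate 1 (blue) and replicate 2 (green, both shifted slightly sideways), with red points at reproducible peaks, the territory shaded, the gene body as a dark bar and TSSs as orange ticks. Peaks of 156.1 and 120.4 stand at the start of mbc, 1 of 55.9 near the end of nau, and 1 of 315.7 just outside the shaded territory of Mef2.

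In this annotation twi (FBgn0003900, 2R, 22985374 to 23048325, plus strand) includes 1 long transcript whose introns hold other genes, and its 11 pooled regions ran from 16.0 to 34.4. None of them had a twi TSS nearest: all lay nearer to CG9896 or CG42741, and the strongest (23009509 to 23010018) had 34.4 in the pool, 11.02 in replicate 1 and 20.69 in replicate 2. The other 2 transcripts form a compact unit of 2218 bp (23046108 to 23048325). Over that unit with 1 kb on either side the pooled list and replicate 2 had no region, and replicate 1 had 1 of 7.19, close to the weakest it lists (6.33). Any binding of ab at this unit was not detectable in the pooled list.

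The fusion-competent fate gene lmd (FBgn0039039, 3R, 23021222 to 23026713, minus strand) had a single pooled region, at its promoter. It lay at 23026307 to 23026816, 151 bp downstream of the TSS, with 24.5 in the pool and 15.05 in replicate 2, and had no match in replicate 1. The nearest reproducible peak outside was 149 kb away, farther than for any other member.

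The founder factor nau (FBgn0002922, 3R, 23712814 to 23718357, minus strand) had 1 reproducible peak, in an intron (23713848 to 23714357). It had 55.9 in the pool, rank 1441 and thus near the end of the list, with 36.6 in replicate 1 and 21.1 in replicate 2. Its summit stood 4254 bp downstream of the nau TSS, and the TSS of CG10300, 2576 bp away on the other strand, was nearer. The region was among the 1664 strongest of replicate 1 (rank 866) but not of replicate 2 (rank 4074). Of 6618 genes of like length 14.6% had a reproducible peak. The territory held 5 pooled regions in 7.54 kb, a number that 4.94% of these genes reached, but the other 4 had signals from 15.1 to 18.9. Of the 5, 3 had the nau TSS nearest, and only the reproducible peak was matched in both replicates. The regions from 23718588 and from 23718854 overlapped each other. The window of this summit is the poorest in G and C of the members (23.8%) and held none of the words.
nau chr3R:23714053-23714153: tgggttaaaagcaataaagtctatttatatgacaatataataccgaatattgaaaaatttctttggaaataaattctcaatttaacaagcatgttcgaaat

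The replicates were compared at the 11 peaks. In 10 of them both replicates had a summit within 200 bp, and the log2 ratio of replicate 2 to replicate 1 ran from -0.79 at nau to 0.78 at the kirre peak from 3022407. Over all 1590 matched reproducible peaks this ratio had a median of 0.05 and an SD of 0.88. All 10 member values lay within 1 SD of that median under the rule of the nearest summit. At the kirre peak from 2744036 this rule paired 20.03 in replicate 1 with 22.63 in replicate 2. It passed over a stronger region of replicate 2 (54.74) whose summit was also within 200 bp, 118 bp from the pooled one. The closeness of the replicates at that peak thus depends on the rule. With 1 value per replicate and peak, no test at a single peak was possible. Taking the 1664 strongest regions of each replicate alone, 3 members had one in replicate 1 (kirre with 5, mbc with 3, nau with 1) and 3 in replicate 2 (kirre with 7, mbc with 2, Mef2 with 1), against 14.2% and 11.8% of protein-coding genes. So kirre and mbc held such regions in both replicates, nau in replicate 1 and Mef2 in replicate 2. The 14.2% and 11.8% are not matched for gene length.

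**Figure D4:**
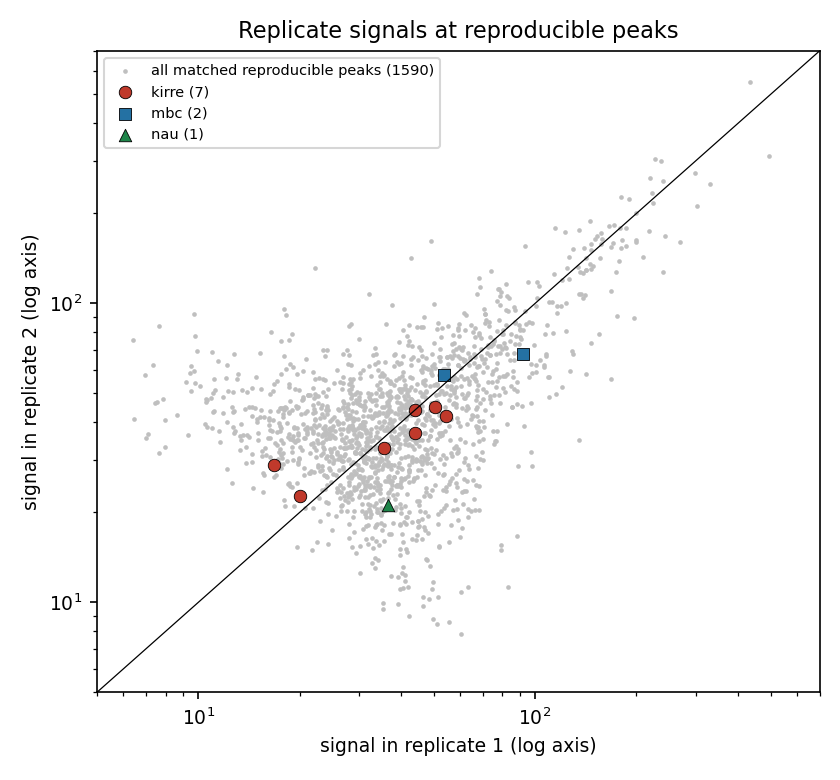
Signals in replicate 1 and replicate 2, on log axes, at the 1590 reproducible peaks matched in both (grey), with the 7 matched kirre peaks (red circles), the 2 mbc peaks (blue squares) and the nau peak (green triangle). The line marks equal signal, and the member peaks lie in the body of the cloud, with mbc at 92.1 and 67.9 the strongest of them in replicate 1.

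By position, 7 of the 11 member summits were intronic (63.6%) and 4 were within 500 bp of a TSS (36.4%). The nearest TSS was that of another gene in each case, Syx4 for 2 of them, N and Nup98-96, and the last of these summits was also 222 bp from the mbc TSS. Over all reproducible peaks 56.6% lay at promoters and 30.6% in introns. None of the members thus had a reproducible peak within 500 bp of its own TSS with that TSS nearest. Territories are gene bodies with 1 kb, so intergenic summits, 10.6% of all reproducible peaks, were largely left out by the rule. In addition, 8 of the 11 member summits lie in the long gene kirre. The shares by position are therefore set in part by the choice of territories and by 1 gene. Windows of 101 bp at the member summits had a median G and C content of 31.7% (range 23.8 to 42.6%). This was below the 37.6% of all reproducible summits and the 44.6% of windows centred 300 bp to either side of them. This median and the word counts below describe mostly kirre. They also set mostly intronic windows beside a list that is mostly at promoters. The E-box CANNTG was present in 3 of the 11 windows (27.3%), against 38.6% of all reproducible windows and 40.5% of the flanking ones. These were 1 of the Syx4 pair (from 2743020), 1 of the CG32795 pair (from 2786476) and the Nup98-96 peak. The Mef2 consensus was present in 1 (9.09%), against 4.51% and 3.03%. The other 5 words were in none of the 11 at this window width. Of all reproducible windows, 11.4% held GAGAG, the word of the GAGA factor, and 5.17% held ATCGAT, the core of the DREF element. The E-box variant CATATG was in 4.15%, CAGGTA, the word of the early embryonic factor Zelda, in 1.98%, and GGTCACA, found at promoters bound by M1BP, in 1.44%. Both strands were searched, every CATATG also counts as CANNTG, and a match is a stretch of letters, not a binding site.

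Genes of 3 related lists (fusion machinery, muscle lineage and identity regulators, and sarcomere genes) were near the background of 13.2%. That background is not matched for gene length, and no share among genes of like length was computed for these lists. Of 26 genes of the fusion machinery 4 had a reproducible peak in their territory (15.4%). They were drk, an adaptor of receptor tyrosine kinases (signal 142.1, with the TSS of mars nearest), the kinase gene Pak3 (127.3, intronic), Arp3, a subunit of the actin-nucleating Arp2/3 complex (83.6, 55 bp from the TSS of msk), and the GTPase gene Rac2 (54.4, 1 bp from its own TSS). The Pak3 summit lay 4503 bp from its own TSS, which was the nearest. In Rac2 the replicates gave 17.4 and 31.7, and in Arp3 58.6 and 20.5. Of 34 regulators of muscle lineage and identity 5 had one (14.7%): the zinc-finger factor zfh1 (110.1), the T-box genes org-1 (98.3) and Doc2 (56.6), the ligand gene jeb of the receptor Alk (89.1), and ths, a ligand of the FGF receptor htl (77.7). All but Doc2 had their own TSS nearest, at 301 bp for org-1, 1473 bp for zfh1, 1505 bp for ths and 16750 bp for jeb. Of 20 sarcomere genes 3 had one (15%): sls, which encodes the titin-like protein of muscle (112.1, 253 bp from its TSS), Actn, encoding alpha-actinin (76.2, but 163 bp from the TSS of usp), and the actin gene Act87E (52.4). The Act87E summit lay 2106 bp from its own TSS. Genes that act beside the members in fusion and had no reproducible peak include rols, blow, siz, Hem, WASp, Vrp1, Ced-12, Rac1 and sing.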

How the data were processed

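Whole embryos of the ab-GFP line were measured in 2 biological replicates. Per the deposited description files, the authors made relaxed region lists from the alignments of each replicate, and of both together, with a control, and a list filtered for reproducibility (IDR, the irreproducible discovery rate). Which aligner, caller and cut-offs were used is not given in the sources used here. Each deposited signal is the authors' own score, used here to rank and describe. Regions are mostly 384 bp wide in replicate 1, 600 bp in replicate 2 and 510 bp in the pool. The lists on dm3 were not used here. Fragments were 200 to 800 bp long, per the labels.

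Genes and TSSs came from Ensembl release 115 (dm6 coordinates), without annotated transposable elements, and sequence from the RefSeq assembly of that build. Positions are 1-based. Territories, nearest TSSs, replicate matches (1 replicate region can match several pooled summits) and words were computed in Python 3.11.15 with pandas 2.3.3, and the first 3 steps recovered all summits placed at known positions in 200 genes. Named are the members, genes with the TSS nearest to their peaks, and members of 3 related lists (80 genes, 3 matched through synonyms) with a peak. Others (genes of kirre's length, genes at the nearest outside peaks, Pal1, fusion genes without a peak) were chosen after values were seen. Members and lists were chosen with earlier results of these data known. No significance test was made. Alternatives were other lists, territories, matching distances, promoter widths, windows and TSS sets.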

Additional observations from a re-analysis of the deposited data

How the results depend on the processing

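Of 51 comparisons with an alternative setting, 41 stayed within 1.5 times the reported count (or, for the replicate ratio, within its SD over all peaks) in the same direction. A count that stayed can still name other genes. With the reproducible peaks above the median signal, 2 members in place of 3 had a peak, and nau had none. The territories then held 6 peaks in place of 11 and kirre 4 in place of 8. With all pooled regions these numbers were 111 and 63, with 9 members having a region and 8 one at their own nearest TSS, by construction of a far longer list. From the strongest regions of a single replicate, kirre held 5 without replicate 2 and 7 without replicate 1. Without replicate 1 the 3 members were kirre, mbc and Mef2, and nau had none. In that setting 3 members in place of 2 had one with their own TSS nearest. Promoters of 200 bp left 1 of the 4 promoter summits, and windows of 100 bp to either side held an E-box at 7 of 11 summits (63.5% of all reproducible summits). In these wider windows the Mef2 consensus was at 2 of 11 (10.6% of all). GAGAG (25.7%), ATCGAT (9.19%), CAGGTA (3.97%) and GGTCACA (3.55%) were each at 1, and CATATG (7.57%) at none. With the nearest TSS, 2 fusion machinery genes in place of 4 had a peak. Counting starts of transposable elements as TSSs, an alternative chosen after seeing the data, left 2 members with a peak at their own TSS. No paired analysis was possible because there is 1 group. Depth is unknown, so weak regions cannot be told from unbound sequence.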

Other observations

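The member windows were also searched for 6-base words, on both strands, after their sequences were seen. The word AAAAAT (or ATTTTT) was in most of them, 7 of 11, against 30.2% of all reproducible windows and 21.3% of the windows centred 300 bp away. The word TTGAAA (or TTTCAA) was in 6, against 16.5% and 11%. So were AAATAC (or GTATTT), against 12.7% and 9.92%, and ATTTCA (or TGAAAT) and AAAAAA (or TTTTTT), against 13.8% and 21.2% of all reproducible windows. These words were picked out of all 6-base words for their counts, and the member windows are poorer in G and C than other reproducible windows, so the counts are a description without a test.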
